A study of Mus musculus with 8 samples.

Results

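In all, 10 genes of peroxisomal beta-oxidation were followed in gonadal fat of mice described by the submitters as lacking functional peroxisomes in that tissue. They are the acyl-CoA oxidases Acox2 and Acox3, the bifunctional enzymes Ehhadh and Hsd17b4, the thiolases Acaa1a, Acaa1b and Scp2, the membrane transporters Abcd2 and Abcd3, and the carnitine acyltransferase Crot. The 10 were taken by gene symbol from the platform annotation, out of 18193 genes with a usable name, and were represented by 21 probe sets out of 45037. A gene's level is the log2 value of its brightest probe set, by the mean of all 8 arrays, and its remaining probe sets are given beside it. The knockout mice carried a Pex5 deletion named aP2-Pex5 -/- after the promoter of the fatty acid binding protein aP2, also called Fabp4, which is active in adipocytes and also in some other cells such as macrophages, and supplied 4 arrays (knockouts 6, 8, 9 and 10). Mice labelled wild type, on a Swiss background, supplied another 4 arrays (controls 1, 2, 3 and 4). All were 10 weeks old, kept under normal conditions and untreated, and 1 array was run per sample. The comparison asks what fat transcribes differently when adipose cells lack working peroxisomes.

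Peroxisomes shorten fatty acids that mitochondria handle poorly: very long, branched and dicarboxylic chains and the side chain of bile acid precursors. ABC transporters of the D family carry the acyl-CoA in, an oxidase makes the double bond and hydrogen peroxide, a bifunctional enzyme hydrates and dehydrogenates the product, a thiolase splits off a short acyl-CoA and leaves a shorter chain, and carnitine acyltransferases ready the products for export. Pex5 is the cytosolic receptor that brings the matrix enzymes of this chain into the organelle, while the transporters reach the membrane by a route that uses other peroxins. Many genes of the chain are targets of the nuclear receptor PPAR alpha in mouse liver.

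Adipocyte genes were high on all arrays, with a mean over 8 measured markers of 13.42 to 13.60 in knockouts and 13.21 to 13.57 in controls. The 2 Pex5 probe sets differed by -0.01 and 0.04 between groups, and the labels do not say which exons were deleted, so they do not check the genotype. Some arrays stood apart. The mean of 11 liver markers was 7.34 to 9.53 on knockouts, against 7.29 to 8.90 on controls 2, 3 and 4 and 11.29 on control 1. Xist, a transcript of female cells picked after its value was seen, read 5.73 to 6.20 on knockouts, against 5.55 to 5.79 on the same 3 controls and 8.27 on control 1; the labels do not give the sex of the samples. On control 1 Alb read 13.64, Ttr 11.94 and Cps1 10.27, and 9 of the 11 liver markers were highest there. Serpina1b was highest on knockout 6, at 13.23, and Cyp2e1 read 14.04 to 14.45 on all arrays. On knockout 9, control 1 and control 4 the 3' minus 5' difference of the pyruvate carboxylase control probe sets, a sign of RNA degradation, was 4.65, 3.97 and 4.83, against 1.59 to 2.10 on the others. Epididymal markers averaged 9.19 on knockout 8, 6.98 on control 1 and at most 5.88 elsewhere. Of these Adam7 read 10.14 on control 1 and 9.23 on knockout 8, and at most 6.13 elsewhere. Lcn8 read 11.02 on knockout 8 and 4.70 on control 1. Levels did not overlap between the first 4 samples as listed (knockouts 6 and 8, controls 1 and 2) and the last 4 for 14.4% of all genes; the labels do not say what sets them apart. In whole tissue, fewer cells of a type and less RNA per cell cannot be told apart.

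None of the 10 genes passed the test between knockout and control. The limma adjusted p, taken over all 18193 genes, was 0.999 for each, and 0 genes (0%) were called. Without adjustment, limma's p fell under 0.05 for 2 of the 10, Ehhadh (0.0291) and Acaa1a (0.0496), beside 2.56% of all genes; Ehhadh was the 1 that lay lower in knockout, beside 1.38% of all genes. The levels of the groups did not separate completely in any of the 10 genes or 21 probe sets, beside 1.70% of genes and 1.60% of probe sets. Of the 10 differences 7 were below 0 and 3 above, with a median of -0.08, while 53.3% of all genes lay below 0 with a median of -0.01. Without control 1 the 10 split 5 and 5, with a median of -0.03. Within the first 4 samples 7 lay below 0 with a median of -0.19, and within the last 4 samples 4 did, with a median of 0.00638. The 95% intervals of the 10 genes had a median half-width of 0.27 on the log2 scale, and together they ran from -0.93 to 0.64.

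**Figure D1:**
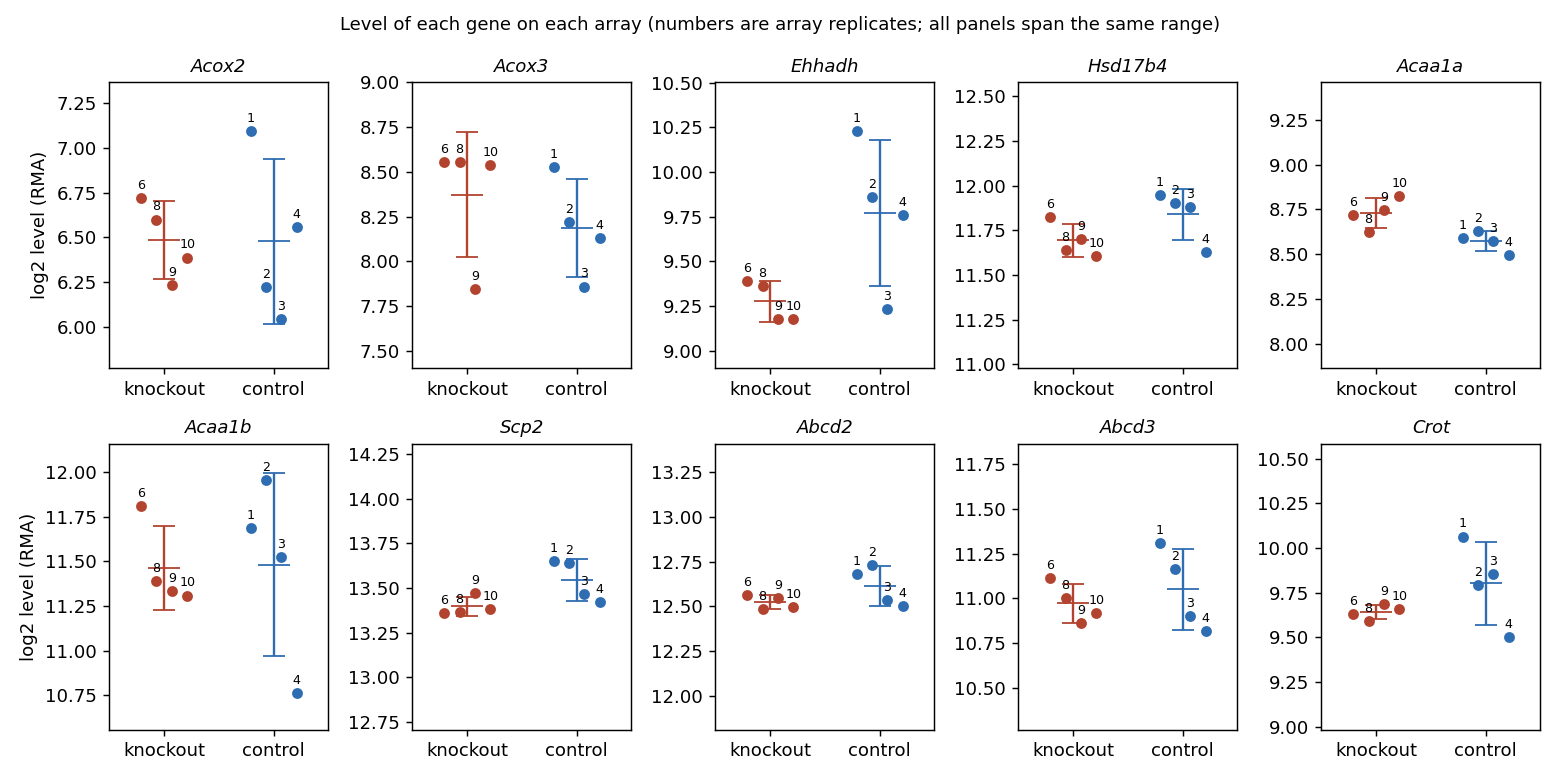
Log2 level (y axis) of each of the 10 genes on each array, knockout in red on the left and control in blue on the right, with the group mean and SD as bars and the replicate number above each point. Every panel spans the same range, so the narrow panels of Abcd2 and Scp2 can be set against the wide ones of Ehhadh, Acaa1b and Acox2; in none of them do the groups separate.

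Promoter sequences are shown for 3 members: Ehhadh, which had the largest difference of the 10, and the paralogues Acaa1a and Acaa1b, which lie close together and encode the same enzyme activity. Acaa1a and Acaa1b are both on chromosome 9 with 6 annotated genes between them (GRCm38.p6). Each run covers 250 bases before and 50 after the RefSeq start, 5′ to 3′ on the gene's strand, from RefSeq on GRCm38.p6. Capitals mark the CCAAT box and the GC box GGGCGG on either strand, so that ATTGG and CCGCCC are capitals too.
Ehhadh (chr16:21787785-21788084, minus strand): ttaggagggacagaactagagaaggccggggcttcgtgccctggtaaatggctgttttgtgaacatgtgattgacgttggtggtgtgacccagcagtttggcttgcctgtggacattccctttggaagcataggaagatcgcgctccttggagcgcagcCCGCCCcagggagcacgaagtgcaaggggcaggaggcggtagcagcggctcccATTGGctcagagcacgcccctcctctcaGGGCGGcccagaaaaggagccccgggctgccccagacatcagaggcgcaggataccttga
Acaa1a (chr9:119341044-119341343, plus strand): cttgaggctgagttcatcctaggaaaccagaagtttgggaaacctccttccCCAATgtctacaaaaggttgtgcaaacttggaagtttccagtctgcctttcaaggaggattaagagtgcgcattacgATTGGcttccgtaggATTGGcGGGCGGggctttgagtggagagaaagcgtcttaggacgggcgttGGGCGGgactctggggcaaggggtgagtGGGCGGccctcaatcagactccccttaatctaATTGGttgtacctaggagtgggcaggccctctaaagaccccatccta
Acaa1b (chr9:119157044-119157343, minus strand): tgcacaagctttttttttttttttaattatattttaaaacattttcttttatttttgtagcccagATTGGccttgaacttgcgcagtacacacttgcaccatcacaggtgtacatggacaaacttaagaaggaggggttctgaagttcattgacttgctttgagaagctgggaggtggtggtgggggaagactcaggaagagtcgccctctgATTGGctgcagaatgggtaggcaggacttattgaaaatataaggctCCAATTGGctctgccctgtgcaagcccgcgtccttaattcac
The Acaa1a window held 4 CCAAT boxes and 3 GC boxes, the Acaa1b window 4 CCAAT boxes and 0 GC boxes, and the Ehhadh window 1 CCAAT box and 2 GC boxes. In the Acaa1b window 2 of the CCAAT matches overlap as CCAATTGG, read on opposite strands. Both lie after the start, as does the last match of the Acaa1a window. Of the 10 windows listed for 8 members, 5 held a CCAAT and 5 a GGGCGG. Of 32851 promoters of the same length, 37.4% held a CCAAT and 35.7% a GGGCGG. For the PPAR element only the exact direct repeat of AGGTCA with 1 base between the copies was searched, on both strands. It had 0 matches in the 10 windows listed for 8 members and was in 0.0396% of all windows. A string this rare is unlikely in any 10 windows, so its absence does not show that these genes lack PPAR elements. A single AGGTCA on either strand was in 1 of the 10 windows, that of Scp2, and in 16.3% of all, counting copies inside the repeat. Hsd17b4 and Abcd2 were not analysed here for promoters.

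The oxidases take the first step of each cycle. Acox2, which acts on branched chains and bile acid intermediates, read 6.72, 6.60, 6.23 and 6.39 in knockouts 6, 8, 9 and 10, against 7.09, 6.23, 6.04 and 6.56 in controls 1, 2, 3 and 4. Control 1 was the highest array and control 3 the lowest, so the control range enclosed that of the knockouts. The means were 6.49 ± 0.22 in knockout and 6.48 ± 0.46 in control (SD, n = 4 each), a difference of 0.01 (95% interval -0.50 to 0.52). With knockout 9 and controls 1 and 4 left out, an alternative added once the data had been seen, it was 0.44 (limma adjusted p = 0.236). Acox2 was the 1 member of the 10 whose mean lay below the median gene mean of 7.58. Acox3, the oxidase of branched chains such as pristanic acid, read 8.55, 8.56, 7.85 and 8.54 in the knockouts, against 8.52, 8.22, 7.86 and 8.13 in the controls. Knockouts 6, 8 and 10 were above every control and knockout 9 was below every control. The difference was 0.19 (-0.26 to 0.64), with 0.36 without knockout 9 (limma adjusted p = 0.986) and 0.08 without control 3. With knockout 9 and controls 1 and 4 left out it was 0.51 (limma adjusted p = 0.150). On the dimmer Acox3 probe set the difference was 0.01 (-0.25 to 0.27).

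The bifunctional enzymes take the middle steps. Ehhadh, the L-bifunctional protein, which is used for dicarboxylic acids and is strongly PPAR alpha-responsive in mouse liver, read 9.39, 9.36, 9.17 and 9.18 in the knockouts, against 10.23, 9.86, 9.24 and 9.76 in the controls. Controls 1, 2 and 4 were above every knockout, and control 3 lay within the knockout range. The knockouts were close to each other, at 9.28 ± 0.12, and the controls spread, at 9.77 ± 0.41 (SD, n = 4 each). The difference of -0.49 (-0.93 to -0.06) corresponds to 0.710 of the control level (0.526 to 0.957). Ehhadh did not pass with limma (adjusted p = 0.999), and the exact two-sided permutation p was 0.0857 where 0.0286 is the smallest that 70 arrangements allow. Control 1, the array highest in liver markers, gave the highest value, and without it the difference was -0.34. Without control 3 it was -0.67, and with knockout 9 and controls 1 and 4 left out -0.24 (limma adjusted p = 0.711). It was -0.67 within the first 4 samples and -0.32 within the last 4. Hsd17b4, the D-bifunctional protein that handles very long and branched chains, read 11.82, 11.64, 11.70 and 11.61 in the knockouts, against 11.95, 11.90, 11.88 and 11.63 in the controls. Controls 1, 2 and 3 were above every knockout, and control 4 was near the lowest of them. The difference was -0.15 (-0.35 to 0.06) on this probe set and -0.17 (-0.36 to 0.03) on the second.

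Thiolases close the cycle. Acaa1a, 1 of the 2 mouse 3-ketoacyl-CoA thiolase genes, read 8.72, 8.62, 8.75 and 8.83 in the knockouts, against 8.59, 8.63, 8.57 and 8.50 in the controls. There 3 controls lay below every knockout, and control 2 lay just above knockout 8. The means were 8.73 ± 0.08 in knockout and 8.57 ± 0.06 in control (SD, n = 4 each), a difference of 0.16 (0.000321 to 0.31), or 1.12-fold, with a limma adjusted p of 0.999. It was 0.06 within the first 4 samples and 0.25 within the last 4. In the fit over all probe sets, the same probe set had an interval of -0.00176 to 0.32 (limma unadjusted p = 0.0521). On the mean of the gene's probe sets the difference was 0.13 (limma unadjusted p = 0.160). The second Acaa1a probe set differed by 0.10 (-0.17 to 0.37). Both are of a type that can also bind related transcripts.

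Acaa1b, the paralogue, read 11.81, 11.39, 11.33 and 11.31 in the knockouts, against 11.69, 11.95, 11.52 and 10.76 in the controls. Control 4 was the lowest array and control 2 the highest, and the difference was -0.02 (-0.58 to 0.54). It was -0.26 without control 4 and 0.14 without control 2. The probe sets annotated to both thiolases, which belong to neither gene by the rule used here, differed by 0.09 and 0.06. Scp2, whose longer product is a thiolase for branched chains and whose shorter product carries sterols, read 13.36, 13.37, 13.47 and 13.38 in the knockouts, against 13.65, 13.64, 13.46 and 13.42 in the controls. Controls 1 and 2 stood above all other arrays, and 3 of 4 knockouts were below every control. The difference was -0.15 (-0.32 to 0.03), with -0.28 within the first 4 samples and -0.02 within the last 4. The 3 other Scp2 probe sets differed by -0.08, 0.10 and 0.08, so the sign depended on the probe set.

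The transporters are membrane proteins. Abcd2, which carries very long chain acyl-CoA and is abundant in fat, read 12.57, 12.49, 12.55 and 12.50 in the knockouts, against 12.68, 12.73, 12.53 and 12.50 in the controls. Controls 1 and 2 were above every other array. Abcd2 varied least of the 10 genes, with an SD over the 8 arrays of 0.09, and its difference was -0.09 (-0.26 to 0.08). That interval runs from 0.836 to 1.06 of the control level. The 3 other Abcd2 probe sets differed by -0.09, -0.07 and 0.04.

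Abcd3, the 70 kDa membrane protein that carries branched and dicarboxylic chains, read 11.11, 11.00, 10.86 and 10.92 in the knockouts, against 11.31, 11.16, 10.90 and 10.82 in the controls. Its 4 highest arrays were the first 4 samples (11.00 to 11.31) and its 4 lowest the last 4 (10.82 to 10.92), so it was the 1 member of the 10 whose array sets did not overlap, beside 14.4% of all genes. The group difference was -0.08 (-0.35 to 0.20), and -0.18 within the first 4 samples and 0.03 within the last 4. The dimmer Abcd3 probe set differed by -0.19 (-0.70 to 0.32). Crot, which moves medium chains from CoA to carnitine for export to mitochondria, read 9.63, 9.59, 9.69 and 9.66 in the knockouts, against 10.06, 9.79, 9.86 and 9.50 in the controls. Again 3 controls were above every knockout and control 4 was below every knockout. The knockouts agreed within an SD of 0.04 and the controls within 0.23, and the difference was -0.16 (-0.42 to 0.10). It was -0.07 without control 1 and -0.26 without control 4, and -0.32 within the first 4 samples and -0.00784 within the last 4. The dimmer Crot probe set differed by 0.06.

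**Figure D2:**
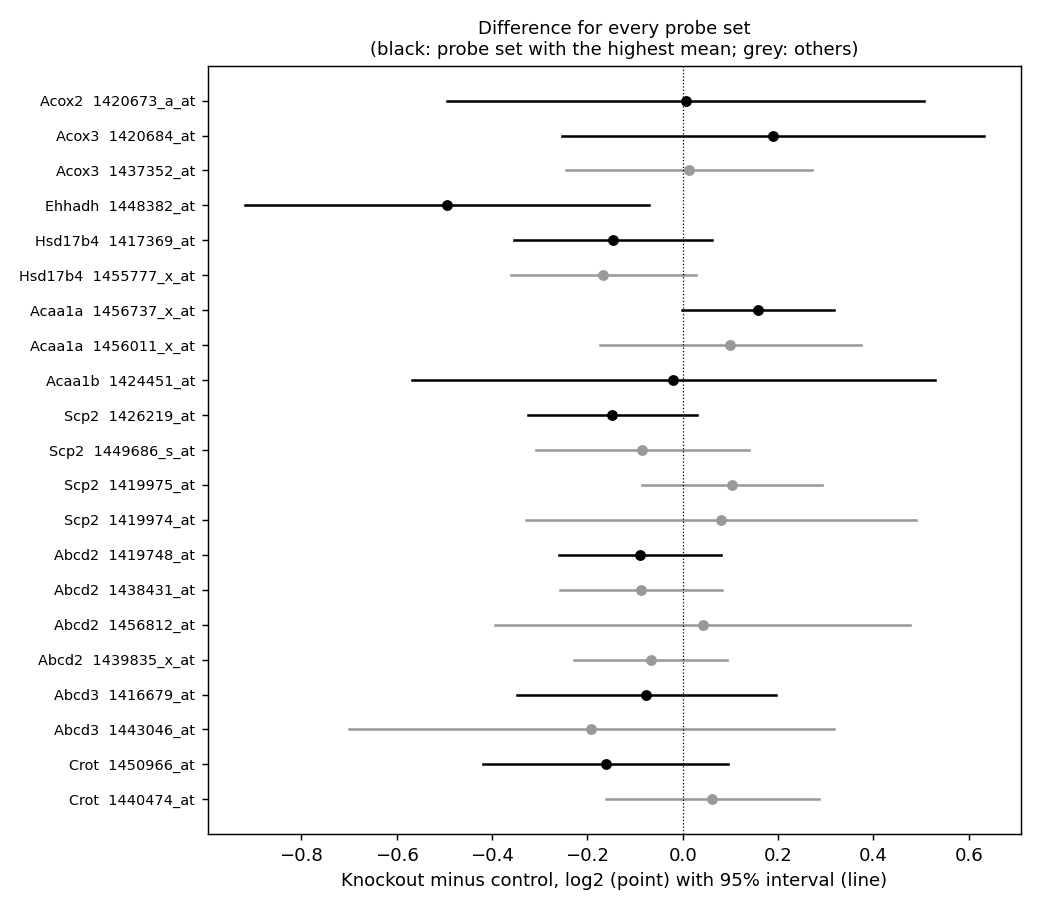
Knockout minus control on the log2 scale (x axis) for each of the 21 probe sets, with 95% intervals from limma over all probe sets; black marks the probe set with the highest mean of its gene and grey the others. The interval of Ehhadh lies below 0, the other 20 include it, and the probe sets of Scp2, Abcd2 and Crot lie on both sides.

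Array differences ran through several members at once. Control 1 was the highest of the 8 arrays for 6 of the 10 genes (Acox2, Ehhadh, Hsd17b4, Scp2, Abcd3 and Crot), and control 4 was the lowest for 4 (Acaa1a, Acaa1b, Abcd3 and Crot). Of the lists described further below, control 1 was also highest for 13 of 17 mitochondrial genes and 11 of 22 other peroxisomal genes. Of the 10 genes, 9 had a positive correlation with the mean of the liver markers over the 8 arrays, and 1 relation passed after adjustment. The same counts over all genes are not given here, so these have no background to be set against. For Abcd3 Pearson's r was 0.95 (exact permutation p = 0.000397, 0.00794 after Benjamini-Hochberg adjustment over 20 relations) and Spearman's rho was 0.95 (exact p = 0.00114, adjusted 0.0228), and r was 0.91 without control 1 and knockout 6. With the mean of each array set taken out, r was 0.90 (exact permutation p within sets = 0.0243, adjusted 0.330), and 4 arrays per set are too few for a value within each. For Acox2 r was 0.71 over 8 arrays (exact permutation p = 0.0491, adjusted 0.232; rho 0.48, exact p = 0.243, adjusted 0.540) and -0.27 without control 1 and knockout 6, so that relation rested on those arrays. For Ehhadh r was 0.67 (exact permutation p = 0.0620, adjusted 0.232; rho 0.60, exact p = 0.132, adjusted 0.540) and 0.29 without the same arrays. For Acox3 r was 0.53 over 8 arrays and 0.30 without them (exact permutation p = 0.167, adjusted 0.334, rho 0.52). For Scp2 r was 0.55 and 0.51 without them (exact permutation p = 0.148, adjusted 0.334, rho 0.14). Without control 1 and knockout 6 the relation of Acaa1b was larger, and those of Hsd17b4, Crot and Abcd2 were smaller. For Hsd17b4 r was 0.75 and then 0.66 (exact permutation p = 0.0192, adjusted 0.192; rho 0.74, exact p = 0.0458, adjusted 0.306). For Crot r was 0.75 and then 0.60 (exact permutation p = 0.0354, adjusted 0.232; rho 0.48, exact p = 0.243, adjusted 0.540). For Acaa1b r was 0.66 and then 0.86 (exact permutation p = 0.0786, adjusted 0.232; rho 0.86, exact p = 0.0107, adjusted 0.107), and for Abcd2 0.65 and then 0.61 (exact permutation p = 0.0814, adjusted 0.232; rho 0.57, exact p = 0.151, adjusted 0.540). Taking out the array set means gave r = 0.84 for Crot, 0.67 for Hsd17b4, 0.52 for Acox2 and 0.50 for Ehhadh. It gave 0.49 for Scp2, 0.41 for Abcd2, 0.31 for Acaa1b and 0.11 for Acox3. None of these passed (exact permutation p within sets, smallest adjusted 0.330). Of the 10 relations with the pyruvate carboxylase difference, 0 passed the adjustment. With that difference as a covariate in limma the value of Ehhadh was -0.47 (unadjusted p = 0.0512) and that of Acaa1a 0.15 (unadjusted p = 0.0736), 0 of the 10 genes had an unadjusted p under 0.05, and the adjusted p was 0.978 or more. The part of liver RNA in the group differences was not tested.

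**Figure D3:**
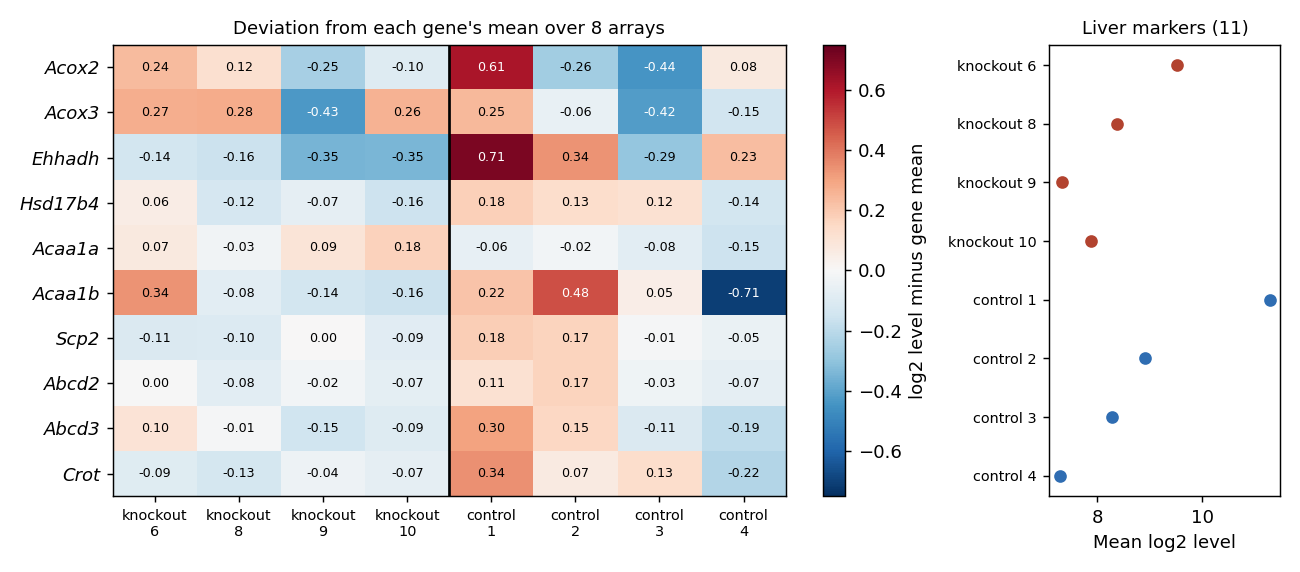
Left, the log2 level of each gene on each array minus that gene's mean over the 8 arrays, with knockouts left of the line and controls right of it; right, the mean log2 level of 11 liver markers on the same arrays, knockouts in red above controls in blue. Control 1 is high for most of the genes and holds the highest liver marker mean, 11.29.

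Among themselves the 10 genes formed 45 pairs, of which 35 had a positive r over the 8 arrays, with a median of 0.51. Of the pairs 14 had an exact permutation p under 0.05 and 0 passed after adjustment over the 45. The highest was Scp2 with Abcd2, at r = 0.90 (exact permutation p = 0.0118, adjusted 0.139; rho 0.62, exact p = 0.115, adjusted 0.431), and it was 0.26 without controls 1 and 2. All pairs share the same arrays and their normalisation.

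Outside the chain, the genes most like the 3 most variable members were sought among genes brighter than the median with an SD of at least 0.2, by Pearson's r over the 8 arrays, which is given as a description. Nearest to Ehhadh, out of 2886 genes, were the nicotinic acid receptor gene Hcar2 (r = 0.95), the phospholipid synthesis gene Cept1 (0.90) and Cul7 (0.88). Hcar2 read 7.70, 7.81, 7.68 and 7.79 in the knockouts, against 8.45, 8.34, 7.68 and 8.02 in the controls. Like Ehhadh it was high on controls 1, 2 and 4 and at the knockout level on control 3. The genes nearest to Acaa1b were Anxa2, Ubxn8 and Cox19 (0.98 each), and those nearest to Acox2, out of 2887 genes, were Cyb561 (0.97), the glutathione transferase gene Gstm6 (0.97) and Hdac6 (0.95). On control 1 Gstm6 read 9.39 and on control 3 6.61, the ends of its range as of that of Acox2. None of these 9 genes passed between knockout and control (limma adjusted p = 0.999 or more).

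Other genes of peroxisomal fatty acid breakdown were set beside the members. Of the 22 analysed here, 0 passed in either direction with limma over all genes, 14 lay below control and 8 above, and the median was -0.05 beside -0.01 for all genes. The 4 with the smallest unadjusted p were lower in knockout without passing (limma adjusted p = 0.999 each). Lonp2, the peroxisomal protease, differed by -0.25 (-0.44 to -0.05) and Crat, which makes acetylcarnitine, by -0.24 (-0.47 to -0.01). Acbd5, a membrane tether that binds acyl-CoA, read 10.92, 11.02, 11.06 and 11.06 in the knockouts, against 11.13, 11.15, 11.24 and 11.09 in the controls, 1 of the 1.70% of genes whose groups did not overlap. Eci3, an enoyl-CoA isomerase, differed by -0.48 (-1.03 to 0.07).

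The mitochondrial counterparts gave 17 measured genes of 18, of which 0 passed, 13 lay below control and 4 above, with a median of -0.08. Hadha, the alpha subunit of the trifunctional protein, differed by -0.20 (-0.44 to 0.03), Cpt2, which regenerates acyl-CoA inside the mitochondrion, by -0.29 (-0.73 to 0.15), Etfb by -0.19 and Echs1 by -0.16. Control 1 was the highest array for 13 of the 17. Of the PPAR receptors and targets 12 of 15 were measured, 0 passed, 7 lay below control and 5 above, with a median of -0.05. Within the first 4 samples the medians of the peroxisomal, mitochondrial and PPAR lists were -0.13, -0.23 and -0.13, and within the last 4 samples they were 0.06, 0.06 and 0.02. Acot1, a cytosolic acyl-CoA thioesterase and PPAR alpha target, read 8.12, 8.95, 8.77 and 9.54 in the knockouts, against 8.07, 6.69, 4.75 and 8.95 in the controls. Controls 2 and 3 were the lowest arrays, and the difference of 1.73 (-0.13 to 3.60) did not pass (limma adjusted p = 0.999). The same 2 controls were lowest for the mean of 7 female tract and ovary markers, which was 6.52 to 6.86 on knockouts, against 5.27 on control 3 and 6.61 and 6.77 on controls 1 and 4, with control 2 between them. Of that list Greb1 read 9.13 to 10.12 on knockouts, against 7.92 on control 2 and 4.92 on control 3. Foxj1, Ovgp1 and Pgr were also lowest on these 2 controls. The kidney marker Lrp2 read 8.96 to 9.85 on knockouts, against 6.29 on control 3, with control 2 next lowest. The mean of the 6 kidney markers was also lowest on control 3, at 5.40, and next lowest on control 2, at 5.68. Of these markers Umod and Slc34a1 were lowest on the same controls. Kap was not, at 6.77 on control 3 and 6.29 to 6.79 on knockouts. Aqp2 was lowest on control 1, and Slc12a1 was highest on control 2. Umod and Slc12a1 read at most 4.96 on all arrays. Of the female tract and ovary markers, Pgr and Fshr were at 4.03 to 5.33 on all 8 arrays. Star was not low on controls 2 and 3, at 7.06 and 7.09 against 6.90 to 7.11 on knockouts. Inha was lowest on control 2, at 5.23, but read 5.44 on control 3, against 5.42 to 6.03 on knockouts. Fshr read 5.16 on control 3, against 4.90 to 5.18 on knockouts. The part of other tissue in the Acot1 difference was not tested. The coactivator gene Ppargc1a differed by 0.60 (-0.22 to 1.42), the receptor gene Ppard by -0.16 and the kinase gene Pdk4 by 0.18.

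**Figure D4:**
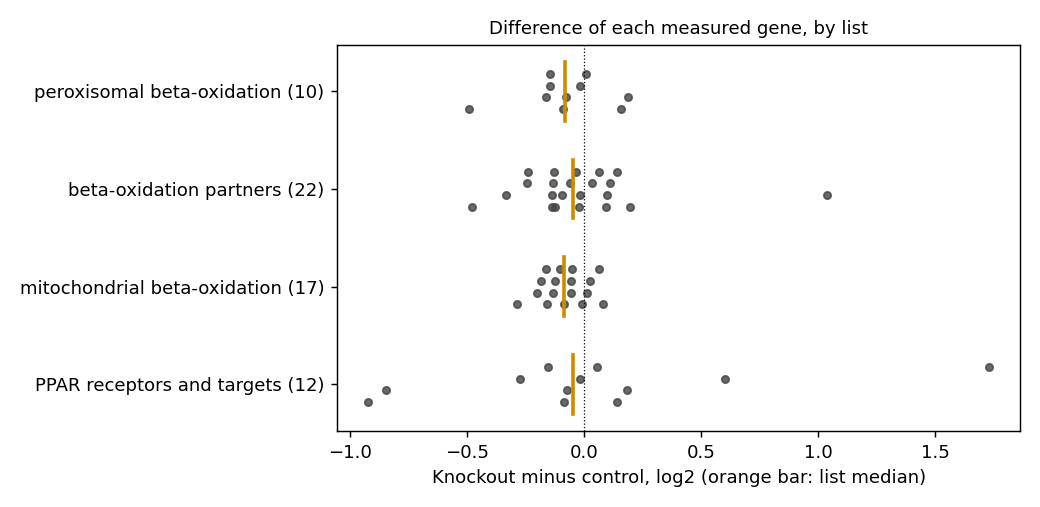
Knockout minus control on the log2 scale (x axis) for each measured gene of the 10 members and the 3 related lists; points are spread vertically for legibility and orange bars are medians. The medians are -0.08, -0.05, -0.08 and -0.05 from top to bottom, and the point at 1.73 is Acot1.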

How the data were processed

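Gonadal adipose RNA was hybridised to Affymetrix mouse expression arrays, 1 per sample. The authors summarised probes into probe sets with RMA, per the submitters' processing notes, which name no version. Deposited log2 values ran from 2.71 to 14.8, with no detection calls. Of 45101 probe sets, 64 Affymetrix controls were left out of the tests. Of the rest, 34945 had 1 gene symbol, 932 several and 9160 none, and only the first kind was named. A gene with several probe sets was represented by the brightest.

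The group difference was fitted by lmFit and eBayes (limma 3.58.1, R 4.3.3) with no covariates, and p-values were adjusted by Benjamini-Hochberg over all genes with a threshold of 0.05; probe sets were fitted the same way. Intervals are of 95%, unadjusted. Precision is bounded by having 8 arrays. No label states that each sample is a separate animal, so the tests reflect only how these samples vary, which may be technical. The members and lists were chosen with earlier results of these data known. The genes named were the 10 members, Pex5, the 4 of each list with the smallest unadjusted p and, for the 3 members of largest SD, the 3 most correlated genes. Marker lists for brown fat, kidney, female tract, macrophages, mesothelium, endothelium, fibroblasts and red blood cells were also measured; 0 of their members passed, as for the adipocyte, liver and epididymis markers. The limma fit was tested on simulated data, drawn independently for each gene and array. Figures were drawn with matplotlib 3.10.9.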

Additional observations from a re-analysis of the deposited data

Results flagged for a closer look

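Among the 20 sets of 4 arrays (10 genes in 2 groups), 2 held an array far from the other 3, by Dixon's 95% criterion; chance gives about 1 in 20. Acox3 read 7.85 on knockout 9, below the other knockouts at 8.54 to 8.56. Acaa1b read 11.81 on knockout 6, above the other knockouts at 11.31 to 11.39.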

How the results depend on the processing

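With each alternative that kept all arrays, within either array set, and without each array in turn, 0 genes were called by limma over all genes. Without controls 1 and 4 and knockout 9, chosen after seeing the data, 155 genes and 219 probe sets were called, 0 of the 10 members among the genes. Over the fits without 1 array the number of probe sets called ran from 0 to 1, with the 1 arising without control 4. The number of members whose groups did not overlap was 7 within the first 4 samples (beside 41% of genes) and 2 within the last 4 (23.2%). It was 5 without controls 1 and 4 and knockout 9 (29.4%). Without 1 array it ran from 0 to 2, beside 2.75% to 8.1% of genes. With 2 or 3 arrays a group such separation is common. Ehhadh, Hsd17b4, Scp2 and Crot stayed below control, and Acox3 and Acaa1a above, in all 20 alternatives. Of these, the permutation test, limma's variance trend, array set as a block and leaving out dim genes could not change a difference. Ehhadh ran from -0.67 to -0.24, Hsd17b4 from -0.22 to -0.10 and Scp2 from -0.28 to -0.01. Crot ran from -0.32 to -0.00784, Acox3 from 0.08 to 0.51 and Acaa1a from 0.06 to 0.25. Acox2 turned to -0.0114 after quantile normalisation again and to -0.0215 with array medians subtracted. Within the last 4 samples Acaa1b turned to 0.18, Abcd2 to 0.00247 and Abcd3 to 0.0275. Without 1 array Acox2 ran from -0.14 to 0.21, Acaa1b from -0.26 to 0.14 and Abcd3 from -0.15 to 0.0106. The medians of the 3 related lists were negative within the first 4 samples and positive within the last 4. Each differed from its value over all arrays by less than the SD of the list mean between replicates (0.154 for the mitochondrial list). From the first set to the last, the peroxisomal and mitochondrial medians moved by more than that SD, and the PPAR median by less. Leaving out dim genes gave no value for Acox2. No paired analysis was possible because the replicate numbers of the groups differ. The causes of these changes were not tested.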
